A study of Oryctolagus cuniculus with 24 samples.

Results

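ENSOCUG00000014009 on rabbit chromosome 12 and ENSOCUG00000008813 on chromosome 8 are the 2 genes with the lowest fitted log2 fold change in lamina propria mononuclear cells (LPMC) of rabbits that received Trichuris suis ova (TSO) and dextran sodium sulphate (DSS), relative to rabbits that received neither. They are 2 of the 17318 genes measured, were chosen by these LPMC values, and were followed here through all 24 libraries of LPMC and intestinal epithelial cells (IEC). Both genes are known here by their Ensembl identifier and chromosome alone, in the build OryCun2.0. The first is annotated on the minus strand and the second on the plus strand, but the libraries do not keep the strand. Reads of an overlapping antisense gene could be counted with them, depending on the counter, which is not given. All animals were New Zealand white rabbits aged 8 to 10 weeks at the start, with no transgene or deleted gene named in the labels, 3 in each of 4 groups. TSO rabbits received 3 doses of 2500 ova at day 1, 14 and 21 and Veh rabbits the vehicle. From day 26 on, DSS rabbits drank fennel tea with 0.1% DSS over 5 days and Water rabbits drank the tea alone, and the caecum of every rabbit was taken at day 35. The groups are called Veh Water (neither), TSO Water (ova), Veh DSS (DSS) and TSO DSS (both), and each rabbit gave 1 LPMC and 1 IEC library. Every rabbit given DSS was housed in room A, and Veh Water rabbit 1 and TSO Water rabbit 2 were housed in room B.

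IEC form the single cell layer that separates the gut content from the body, and LPMC are the immune cells of the connective tissue below it, among them lymphocytes, plasma cells and macrophages. T. suis is the whipworm of the pig, which lives in the caecum and colon and whose ova have been given as a treatment in inflammatory bowel disease. DSS is a sulphated polysaccharide that injures the epithelium and thereby causes colitis. In bulk RNA of such preparations, fewer cells of a type and less RNA per cell cannot be told apart. Since the identifiers come without gene symbols, the labels LPMC and IEC were not checked against marker genes, and no function is given for either gene.

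The recovered read totals ranged from 3685522 to 15770401 per LPMC library and from 13148488 to 27479877 per IEC library. The smallest was LPMC of TSO DSS rabbit 3, in which 3 reads correspond to 0.814 CPM, counts scaled to the total of the library, in comparison to 0.19 to 0.362 CPM in the other LPMC libraries. Mitochondrial genes took 9.06% to 46.5% of the reads. Intervals of counts cover counting error only. Fold changes were fitted by limma on log2(value + 1) of the deposited normalized signal, a scale that understates the change of low genes, and a gene was called where the adjusted p-value was below 0.05 and the log2 fold change was beyond 1 in either direction. The 3 libraries of a group are from separate rabbits, and the same 3 Veh Water rabbits served as the control in every comparison with that group.

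In LPMC, ENSOCUG00000014009 fell to nearly nothing in 2 of the 3 TSO DSS rabbits but not in the third. Its level was 27.9, 118 and 62.9 CPM in the 3 Veh Water rabbits, from 392, 1326 and 702 reads. In TSO DSS it was 0.121, 4.05 and 0 CPM, from 1, 56 and 0 reads. All TSO DSS values lay below all Veh Water values, yet rabbit 2 of TSO DSS kept a level that its counting interval of 3.06 to 5.26 CPM puts clearly above the other two. At the mean share of Veh Water, 577, 963 and 257 reads would have been counted in the TSO DSS libraries, and the counting interval of the 0 reads in rabbit 3 reaches up to 1.001 CPM. The gene thus had 1 and 0 reads in rabbits 1 and 3 but was measurable in rabbit 2.

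In LPMC, ENSOCUG00000008813 was close to absent in all 3 TSO DSS rabbits. Its level was 12.0, 10.2 and 11.1 CPM in Veh Water, from 168, 114 and 124 reads, and the 3 rabbits thus differed by only 1.18-fold between the highest and the lowest. In TSO DSS a single read was found in rabbit 2 and 0 reads in rabbits 1 and 3, where 91.7, 153 and 40.8 reads would have been counted at the mean share of Veh Water. Summed over the group, 1 read of 25798289 in TSO DSS stood against 406 reads of 36430075 in Veh Water, a ratio of 288 with an exact 95% interval of 51.3 to 11380 for the counting error. As part of the same choice and with no test, 6823 genes had at least 100 reads in every LPMC Veh Water library, and of these ENSOCUG00000008813 alone had at most 3 reads in every LPMC TSO DSS library.

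The fitted differences in LPMC describe how the genes were chosen and are not a test. The log2 fold change of TSO DSS against Veh Water was -7.08 (standard error 1.39) for ENSOCUG00000014009 and -6.54 (standard error 0.39) for ENSOCUG00000008813. They were the lowest and the second lowest of 11059 genes. The order of the 2 genes turned with a pseudocount of 0.1, by edgeR, and without TSO DSS rabbit 3 or Veh Water rabbit 2. The call of ENSOCUG00000014009 by limma was lost with a pseudocount of 0.1, with the replicate block, by edgeR and when any 1 rabbit other than TSO DSS rabbit 2 was left out. That of ENSOCUG00000008813 was lost without Veh Water rabbit 2. Over all settings tried, the log2 fold change ranged from -8.65 to -5.08 for ENSOCUG00000014009 and from -9.12 to -3.56 for ENSOCUG00000008813. In the fit given first, the next gene outside the choice, ENSOCUG00000026419 on chromosome 11, stood at -6.05. In this comparison 5.72% of the genes tested were called and 4.92% were called lower, and for 16.6% all TSO DSS libraries lay below all Veh Water libraries. Both groups were spread for ENSOCUG00000014009, with 69.6 ± 45.5 CPM in Veh Water and 1.39 ± 2.30 CPM in TSO DSS (SD, n = 3). For ENSOCUG00000008813 the levels were 11.1 ± 0.906 CPM and 0.0241 ± 0.0417 CPM (SD, n = 3).

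**Figure D1:**
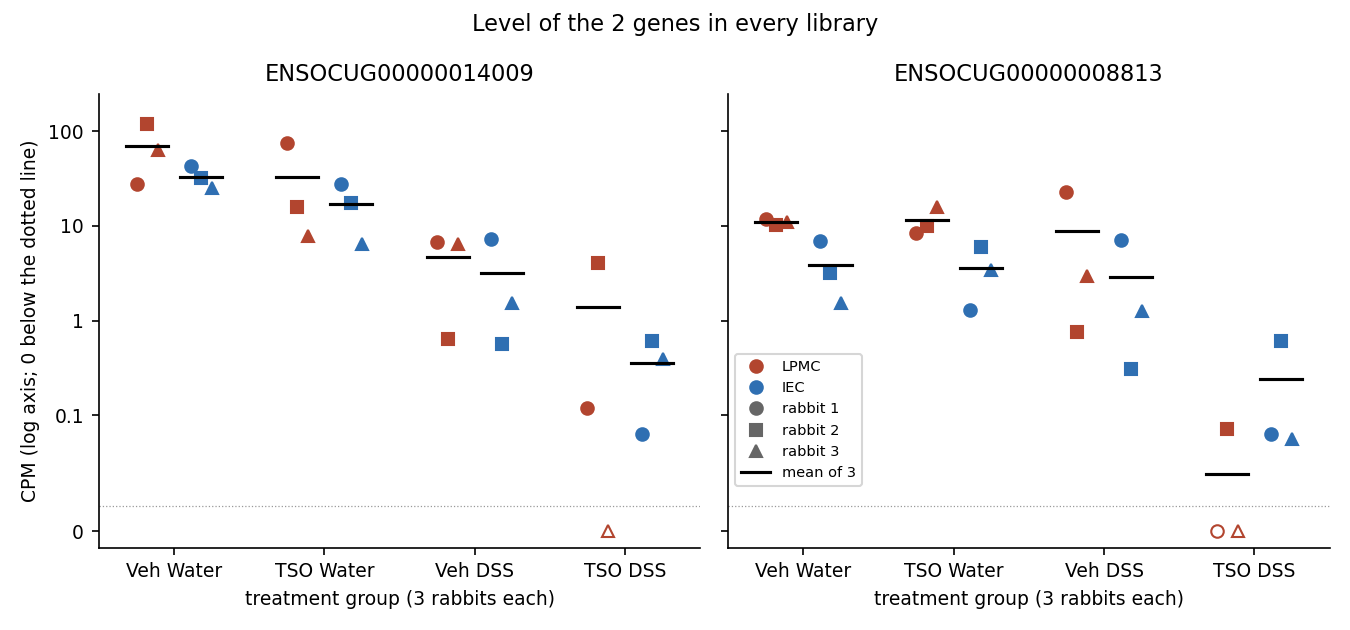
CPM of ENSOCUG00000014009 (left) and ENSOCUG00000008813 (right) in each of the 24 libraries, on a log axis with zeros drawn below the dotted line; colours give the cell type, symbols the rabbit number within its group and black lines the mean of 3 rabbits. The TSO DSS rabbits have the lowest mean for both genes and both cell types, with 4.05 CPM in LPMC of rabbit 2 as the highest of their values. In LPMC, Veh DSS rabbit 2 lies below that value for ENSOCUG00000014009, at 0.634 CPM.

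The 2 genes differed in how they stood in LPMC of rabbits that received DSS without ova. ENSOCUG00000014009 had 6.79, 0.634 and 6.51 CPM in Veh DSS, and each of these values lay below the lowest Veh Water value of 27.9 CPM. The mean of 4.65 ± 3.48 CPM (SD, n = 3) was 6.67% of the mean in Veh Water. For this gene, Veh DSS rabbit 2 lay below the 4.05 CPM of TSO DSS rabbit 2, so that Veh DSS and TSO DSS overlapped. ENSOCUG00000008813 had 23.0, 0.761 and 2.98 CPM in Veh DSS, which is 1 rabbit above and 2 rabbits below the whole range of Veh Water. The 30.2-fold difference between its highest and lowest Veh DSS rabbit exceeded the spread in Veh Water. The fitted log2 fold change of Veh DSS against Veh Water was -4.26 (standard error 0.96) for ENSOCUG00000014009 and -1.56 (standard error 1.07) for ENSOCUG00000008813, given as a description because the Veh Water libraries were used to choose the genes. Groups without overlap in the same direction were found for 7.61% of the genes tested, and 0.125% were called. The mean of ENSOCUG00000008813 in Veh DSS was 80.4% of that in Veh Water, and its fitted value rested on single rabbits, with -0.49 without Veh DSS rabbit 2, -2.80 without Veh DSS rabbit 1 and -0.44 by edgeR on all 6 libraries. The counting interval of Veh DSS rabbit 2, 0.393 to 1.33 CPM, overlapped those of the 3 TSO DSS rabbits, which reach up to 0.403 to 1.001 CPM.

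With ova alone, the mean of ENSOCUG00000008813 was close to that of Veh Water and ENSOCUG00000014009 varied widely. In LPMC of TSO Water rabbits ENSOCUG00000008813 had 8.41, 9.91 and 16.0 CPM, a mean of 11.4 ± 4.01 CPM (SD, n = 3) that is 103% of that in Veh Water. Its rabbits 1 and 2 lay below the Veh Water range of 10.2 to 12.0 CPM and rabbit 3 above it. The log2 fold change was -0.06 with a 95% interval of -0.70 to 0.59. ENSOCUG00000014009 had 74.4, 16.0 and 7.84 CPM, so that rabbit 1 lay inside the range of Veh Water and rabbits 2 and 3 below it. Its log2 fold change was -1.54 with a 95% interval of -3.58 to 0.50, and ranged from -2.46 without TSO Water rabbit 1 to -0.84 without TSO Water rabbit 3. These LPMC values too share the Veh Water libraries with the choice of the genes and are given without a test.

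A single pair of LPMC groups, Veh DSS and TSO Water, was not used to choose the genes, and these groups differ in both the ova and DSS. After scaling the recovered reads of both together, the log2 fold change of Veh DSS against TSO Water was -2.75 (SE 1.09, 95% interval -5.31 to -0.18, adjusted p = 0.39 from limma) for ENSOCUG00000014009. For ENSOCUG00000008813 it was -1.52 (SE 1.06, 95% interval -4.03 to 0.99, adjusted p = 0.64 from limma). The latter value was -0.46 without Veh DSS rabbit 2, -2.78 without Veh DSS rabbit 1, -0.45 by edgeR and -0.42 by DESeq2. The former was -1.71 without Veh DSS rabbit 2 and -1.83 without TSO Water rabbit 1. Neither gene was called, in a comparison that called 0.0776% of the genes tested. All 3 Veh DSS values of ENSOCUG00000014009 were below all 3 TSO Water values, which was so for 9.48% of the genes. Among the rabbits of room A alone, the values were -2.96 and -1.62.

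The IEC libraries were not used to choose the genes, although they come from the same rabbits, and they gave a test of whether the difference between TSO DSS and Veh Water was also present in the epithelial preparation. For ENSOCUG00000014009 it was. The gene had 42.5, 31.8 and 24.95 CPM in IEC of Veh Water rabbits, from 1169, 683 and 328 reads. In TSO DSS it had 0.0642, 0.607 and 0.398 CPM, from 1, 14 and 7 reads. The groups were far apart, with a mean of 33.1 ± 8.87 CPM in Veh Water and 0.356 ± 0.274 CPM in TSO DSS (SD, n = 3). The log2 fold change was -6.41 (SE 0.68, 95% interval -8.04 to -4.78, adjusted p = 0.0059 from limma, by Benjamini-Hochberg over 11225 genes). It was the second lowest value of all genes tested in IEC. ENSOCUG00000014009 was 1 of 12 genes called lower, 0.107% of those tested, while 3.57% were called in either direction. Lists called lower under other settings held 3, 55 and 35 genes when TSO DSS rabbit 1, 2 or 3 was left out, 7 when Veh Water rabbit 3 was left out, 7 by edgeR, 3 with all 12 IEC libraries in the fit, 23 on CPM and 68 by DESeq2. ENSOCUG00000014009 was called in every setting and subset of libraries tried, and among the rabbits of room A alone it stood at -6.21 (adjusted p = 0.024 from limma).

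For ENSOCUG00000008813, the difference in IEC pointed the same way and did not pass the threshold. Its level was 6.99, 3.17 and 1.52 CPM in Veh Water, from 192, 68 and 20 reads. In TSO DSS it was 0.0642, 0.607 and 0.0569 CPM, from 1, 14 and 1 reads. The groups did not overlap, as for 8.23% of the genes tested, but the highest TSO DSS rabbit and the lowest Veh Water rabbit were close, with counting intervals of 0.332 to 1.02 CPM and 0.929 to 2.35 CPM. The log2 fold change was -3.84 (standard error 0.85, 95% interval -5.88 to -1.81, adjusted p = 0.066 from limma), the twelfth lowest of 11225. It was -1.85 on log2(CPM + 1) and -2.02 on CPM without mitochondrial genes, both smaller scales on which the added 1 weighs more. Without TSO DSS rabbit 2, the adjusted p-value from limma was 0.031, and DESeq2 on the recovered reads gave an adjusted p-value of 0.0022. Among the rabbits of room A alone, the log2 fold change was -3.29 (adjusted p = 0.16 from limma). In LPMC of TSO DSS rabbit 2 the same gene had a single read.

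Of the 12 genes called lower in IEC of TSO DSS rabbits, 6 were also tested in LPMC, and 3 were called lower there too. These 3 are 25% of the IEC list, which includes genes not tested in LPMC, and 0.551% of the 544 genes called lower in LPMC. Of all genes tested in LPMC, 4.92% were called lower. The 3 genes are ENSOCUG00000014009, ENSOCUG00000024465 on chromosome 14 and ENSOCUG00000016254 on chromosome 4, named because there are so few. The log2 fold changes in IEC and LPMC were -5.63 and -5.17 for ENSOCUG00000024465 and -3.29 and -3.36 for ENSOCUG00000016254, against -6.41 and -7.08 for ENSOCUG00000014009. IEC and LPMC were taken from the same animals, so that these calls are not independent. The count of 3 includes ENSOCUG00000014009, which was chosen by its low LPMC values, so that its LPMC call is not a test. That call was also lost in the settings named above. The LPMC calls also rest on few rabbits, since limma called 633 genes in LPMC in either direction, 0 without Veh Water rabbit 2, 22 without Veh Water rabbit 1, 220 without Veh Water rabbit 3, 99 without TSO DSS rabbit 1 and 1720 without TSO DSS rabbit 2. In IEC it called 401 genes, 127 without TSO DSS rabbit 1 and 211 without Veh Water rabbit 3.

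In IEC of rabbits with DSS alone, ENSOCUG00000014009 was again low and ENSOCUG00000008813 again split between rabbits. ENSOCUG00000014009 had 7.36, 0.564 and 1.54 CPM in Veh DSS, all below the 24.95 CPM of the lowest Veh Water rabbit. This held for 5.46% of the genes tested. The log2 fold change was -3.99 (standard error 0.87, 95% interval -6.08 to -1.90), yet the gene was not called, with an adjusted p = 0.49 from limma in a comparison that called 0.0893% of the genes. Without Veh DSS rabbit 1, the log2 fold change was -4.99 and the adjusted p-value from limma 0.015, and DESeq2 on all 6 libraries gave an adjusted p-value of 0.0048. ENSOCUG00000008813 had 7.02, 0.308 and 1.26 CPM, with rabbit 1 at the upper end of the Veh Water range of 1.52 to 6.99 CPM and rabbits 2 and 3 below it, and a log2 fold change of -1.07 (95% interval -3.79 to 1.65, adjusted p = 0.78 from limma). This value was -2.23 without Veh DSS rabbit 1, -0.058 without Veh DSS rabbit 2, -0.52 without Veh Water rabbit 1, -0.61 on CPM and -0.31 by edgeR.

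With ova alone, neither gene was called in IEC. ENSOCUG00000014009 had 27.7, 17.4 and 6.52 CPM in TSO Water, overlapping the lower end of Veh Water, and a log2 fold change of -0.91 (95% interval -2.08 to 0.25, adjusted p = 1.00 from limma), or -0.35 without TSO Water rabbit 3. ENSOCUG00000008813 had 1.30, 5.94 and 3.45 CPM and a log2 fold change of 0.11 (95% interval -1.79 to 2.01, adjusted p = 1.00 from limma), which became -0.081 when the values were scaled to CPM. Of 10985 genes, limma put 372 at an unadjusted p-value under 0.05 and called 0, the quasi-likelihood test of edgeR called 0 and DESeq2 called 23. The intervals leave room for a difference of several fold in either gene.

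**Figure D2:**
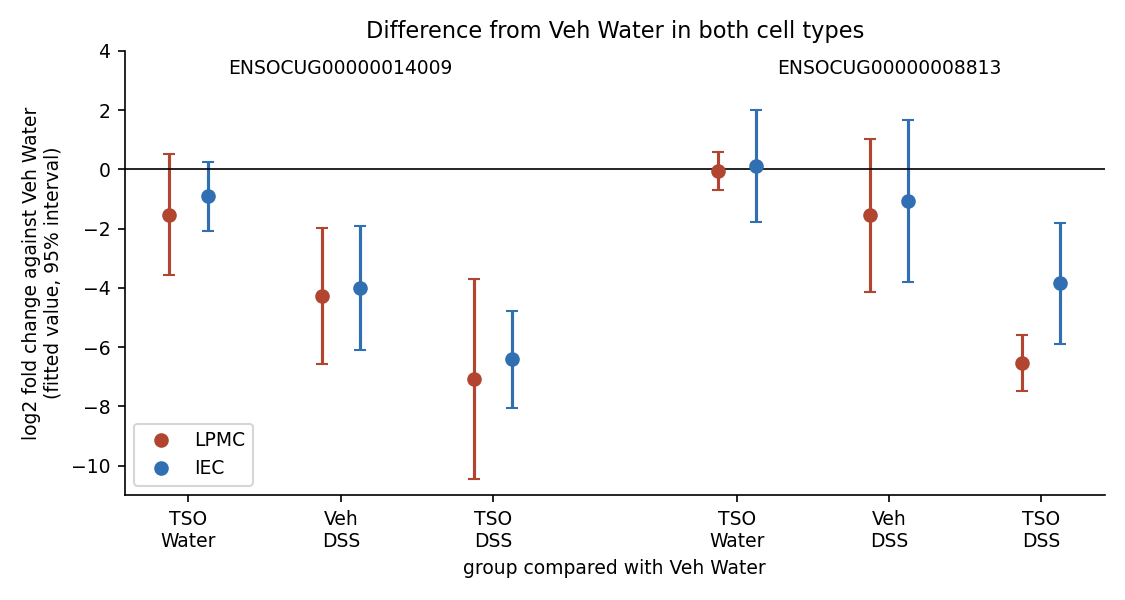
Fitted log2 fold change of each treated group against Veh Water in LPMC and IEC, with 95% intervals from limma (3 against 3 libraries), for ENSOCUG00000014009 (left) and ENSOCUG00000008813 (right). ENSOCUG00000014009 stands at -4.26 and -3.99 in Veh DSS and at -7.08 and -6.41 in TSO DSS; ENSOCUG00000008813 stands at -3.84 in IEC of TSO DSS. The LPMC values of TSO DSS are those by which both genes were chosen and are drawn as a description.

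To see how TSO DSS stood relative to the groups that had received one of the treatments, the IEC libraries were also compared with those of TSO Water and Veh DSS, comparisons that were added after the values had been seen. Relative to TSO Water, ENSOCUG00000014009 was lower in TSO DSS, at -5.46 on the log2 scale (SE 0.78, adjusted p = 0.024 from limma), where 2.12% of the genes tested were called and 0.0396% were called lower. Leaving out any 1 of TSO DSS rabbits 1 and 3 and TSO Water rabbits 1 and 2 put its adjusted p-value from limma between 0.053 and 0.097, the latter being the value for the rabbits of room A alone. ENSOCUG00000008813 stood at -3.89 (SE 0.93, adjusted p = 0.13 from limma and 0.0032 from DESeq2). On CPM the 2 values were -3.57 and -1.77. All TSO DSS libraries lay below all TSO Water libraries for both genes and for 6.59% of the genes tested.

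Relative to Veh DSS, the addition of ova was not detectable for either gene in IEC. The log2 fold change of TSO DSS against Veh DSS was -2.45 (95% interval -5.17 to 0.27) for ENSOCUG00000014009 and -2.81 (95% interval -5.86 to 0.25) for ENSOCUG00000008813, both with an adjusted p = 1.00 from limma, in a comparison that called 0.0097% of the genes. On CPM they were -1.27 and -1.24. With 1 rabbit left out they ranged from -3.26 to -1.45 and from -3.82 to -1.65, with -1.45 and -1.65 without Veh DSS rabbit 1. On the CPM scale the groups overlapped for both genes, since TSO DSS rabbit 2 had 0.607 CPM of each and Veh DSS rabbit 2 had 0.564 and 0.308 CPM. After TMM scaling, as in the fit, ENSOCUG00000014009 did not overlap, by the small margin of 10.69 against 10.73 scaled reads, and 2.44% of the genes tested were likewise lower in every TSO DSS library. Fitted over all 12 IEC libraries, the interaction between ova and DSS was -1.52 (standard error 1.29) for ENSOCUG00000014009 and -2.89 (standard error 1.59) for ENSOCUG00000008813, again with an adjusted p = 1.00 from limma. It fell to -0.19 and -1.16 on CPM and to -0.53 and -1.76 without Veh DSS rabbit 1, and was -2.33 and -3.90 without Veh DSS rabbit 2. Of 10659 genes, limma put the interaction of 125 at an unadjusted p-value under 0.05 and called 0, while edgeR called 0 and DESeq2 called 11.

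The level in LPMC relative to IEC was compared in the 6 Veh DSS and TSO Water rabbits, whose libraries the choice of genes did not use. ENSOCUG00000008813 was higher in LPMC than in IEC in all 6 rabbits, by 1.67-fold to 6.47-fold, with overlapping counting intervals in Veh DSS rabbit 2. Its log2 fold change of 1.55 (standard error 0.84) was not called when the rabbits were disregarded (adjusted p = 0.17 from limma), but was called with the rabbit as a block (adjusted p = 0.0070 from limma). The block applies because both libraries of a pair came from 1 animal. ENSOCUG00000014009 was higher in LPMC in 4 of the 6 rabbits. The counting intervals of its LPMC and IEC levels were apart only in Veh DSS rabbit 3 and TSO Water rabbit 1, both among these 4. The log2 fold change of ENSOCUG00000014009 was 0.56 (95% interval -1.16 to 2.27, adjusted p = 0.62, and 0.26 with the block, from limma). Leaving out 1 library moved these differences between 1.01 and 2.08 for ENSOCUG00000008813 and between 0.16 and 1.01 for ENSOCUG00000014009. In this comparison 18.5% of the genes were called. In the 3 TSO DSS rabbits, whose low LPMC level was the reason for the choice, ENSOCUG00000008813 had 0, 1 and 0 reads in LPMC and 1, 14 and 1 reads in IEC. The counting intervals of both overlapped in each of these rabbits, so that no order of the cell types is read from them.

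**Figure D3:**
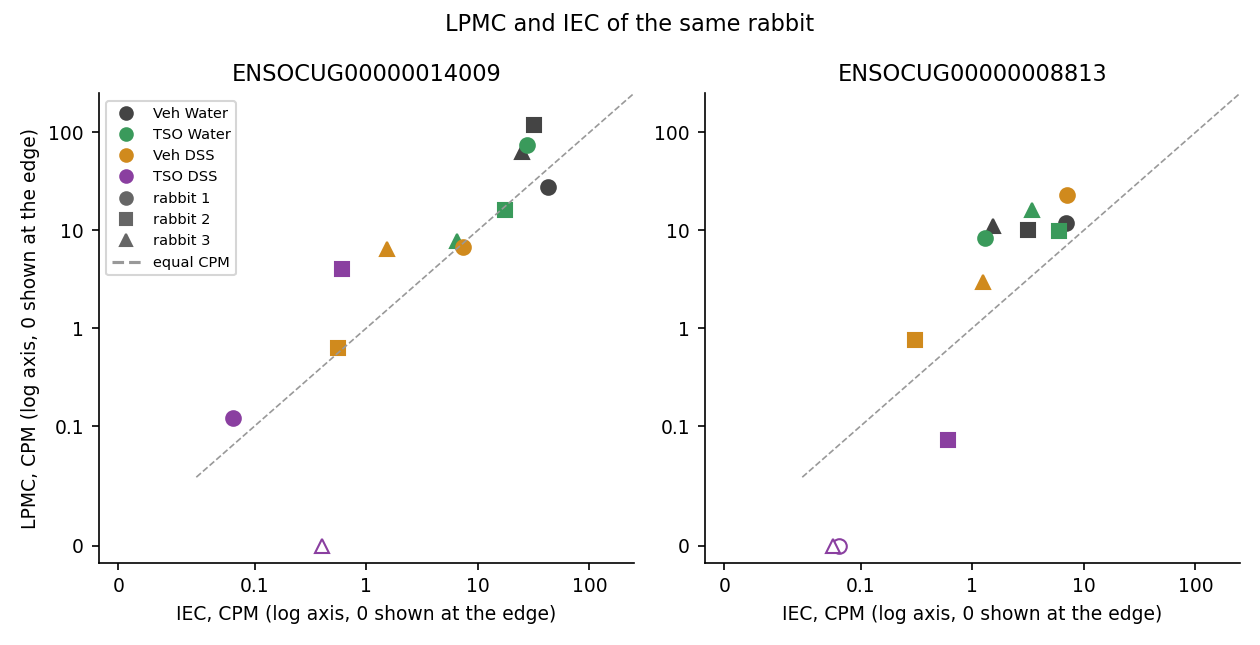
CPM in LPMC against CPM in IEC of the same rabbit, both on log axes with 0 at the edge, for the 2 genes; colours give the treatment group, symbols the rabbit number and the dashed line equal CPM. In the 6 Veh DSS and TSO Water rabbits, which did not enter the choice of the genes, all points of ENSOCUG00000008813 and 4 of those of ENSOCUG00000014009 lie above the line; the TSO DSS points of ENSOCUG00000008813 stand for 0 to 1 reads in LPMC.

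The order of the 3 rabbits of a group was compared between the cell types. In Veh DSS, rabbit 2 was the lowest for both genes in LPMC and in IEC, and rabbit 1 was the highest. For ENSOCUG00000014009, however, counting intervals overlapped between rabbits 1 and 3 in LPMC and between rabbits 2 and 3 in IEC. In TSO DSS, rabbit 2 was the highest for ENSOCUG00000014009 in both cell types and for ENSOCUG00000008813 in IEC, while the 0, 1 and 0 reads of ENSOCUG00000008813 in LPMC do not rank the rabbits. In IEC the counting interval of rabbit 2 overlapped that of rabbit 1 for both genes and that of rabbit 3 for ENSOCUG00000014009. In TSO Water the order of the 3 rabbits was the same in LPMC and IEC for ENSOCUG00000014009, falling from rabbit 1 at 74.4 and 27.7 CPM to rabbit 3 at 7.84 and 6.52 CPM, but not for ENSOCUG00000008813. In Veh Water neither gene kept its order. As a description of the background, the 3 rabbits had the same order in both cell types for 24.3% of 10233 genes in Veh DSS, 15.2% in TSO Water, 16.9% in TSO DSS and 19.3% in Veh Water.

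The genes most like each member over the 12 LPMC libraries were found by the root mean square difference between their log2(CPM + 1) values, each centred on its own mean. This is a description over libraries that include those used to choose the members. For ENSOCUG00000014009 the nearest of the 10594 genes compared was ENSOCUG00000001022 on chromosome 7, at a difference of 0.936, against 2.28 for the median gene. It had 51.3 to 90.3 CPM in LPMC of Veh Water and 0.483 to 5.35 CPM in TSO DSS, and in IEC 54.0 to 113 CPM and 1.34 to 21.4 CPM. ENSOCUG00000027492 and ENSOCUG00000028138, both on chromosome 6, followed at 0.993 and 1.00. In IEC these 2 genes were not like ENSOCUG00000014009, with 81.6 to 258 CPM in Veh Water and 68.1 to 182 CPM in TSO DSS for ENSOCUG00000027492, and 61.7 to 177 CPM and 44.4 to 121 CPM for ENSOCUG00000028138. ENSOCUG00000015622 on chromosome 4 and ENSOCUG00000006749 on chromosome 9 came next, at 1.09 and 1.15.

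ENSOCUG00000008813 had closer companions on log2(CPM + 1), where the added 1 limits how far a gene at 11.1 CPM can fall. ENSOCUG00000010032 on chromosome 13 differed by 0.414 and ENSOCUG00000025873 on chromosome 2 by 0.483, against 1.70 for the median gene. ENSOCUG00000024465 on chromosome 14 (0.523), ENSOCUG00000003479 on chromosome 16 (0.536) and ENSOCUG00000010565 on chromosome 2 (0.536) completed the 5. The nearest, ENSOCUG00000010032, ranged from 10.7 to 85.5 CPM in LPMC of Veh DSS, in comparison to 46.3 to 114 CPM in Veh Water and 4.56 to 5.80 CPM in TSO DSS. In fold it fell less than ENSOCUG00000008813, whose mean was 11.1 CPM in Veh Water and 0.0241 CPM in TSO DSS. ENSOCUG00000024465, one of the 3 genes called lower in both cell types, had 1.90 to 24.4 CPM in LPMC of Veh DSS, 19.0 to 32.7 CPM in Veh Water and 0.242 to 1.63 CPM in TSO DSS. None of the 10 genes lay on chromosome 12 or 8. The share of the compared genes on these chromosomes is not given here, so nothing is read from that count. The 2 members shared 0 of their nearest genes and differed from each other by 1.501, and each stood at rank 171 and 1904 in the list of the other.

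**Figure D4:**
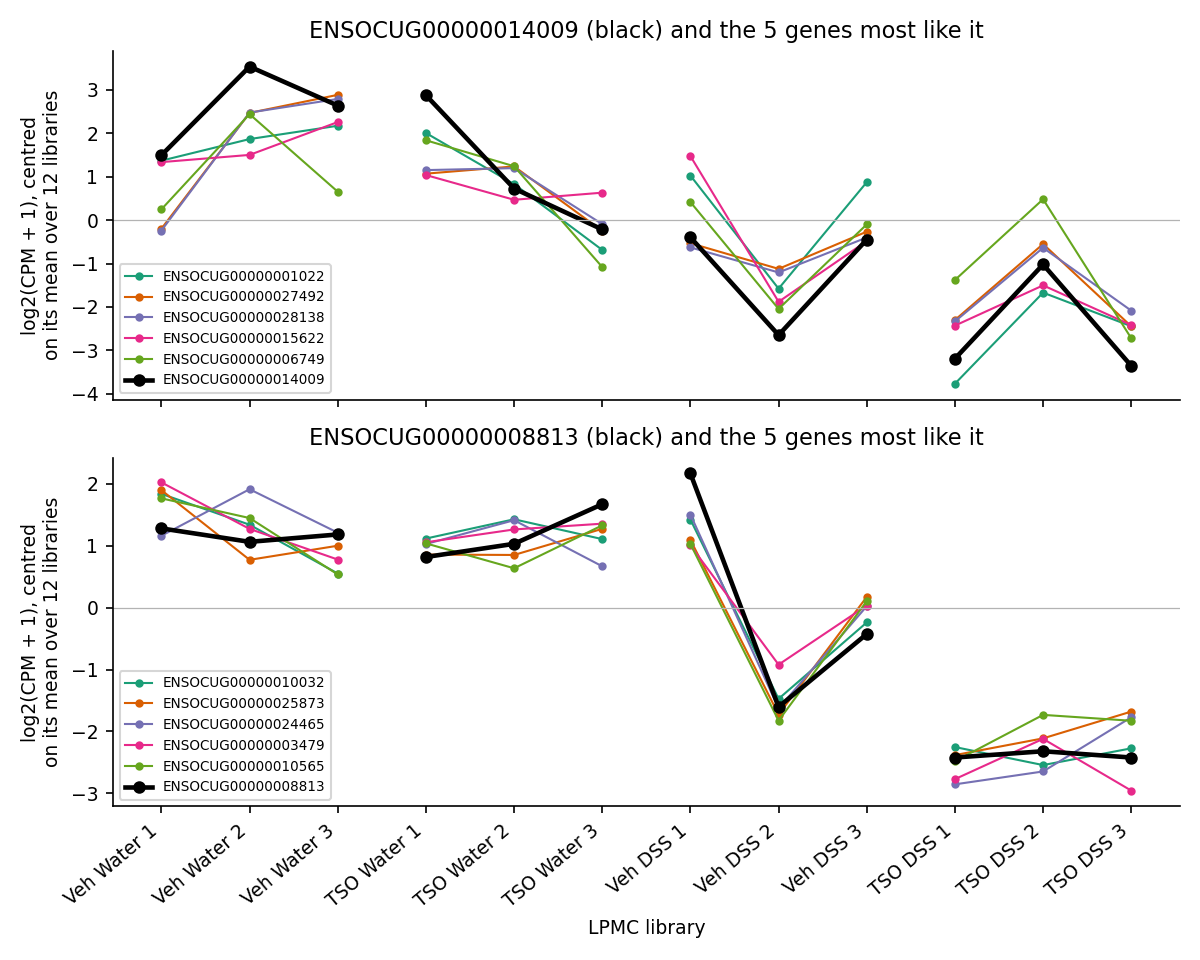
Centred log2(CPM + 1) over the 12 LPMC libraries for ENSOCUG00000014009 (top, black) and ENSOCUG00000008813 (bottom, black), each with the 5 genes of smallest root mean square difference in colour. Both members have their lowest value in TSO DSS. For ENSOCUG00000014009 the groups overlap, with TSO DSS rabbit 2 at -1.02 and Veh DSS rabbit 2 at -2.65. ENSOCUG00000008813 stands between -2.42 and -2.32 in TSO DSS, where -2.42 is the floor of the scale at 0 reads.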

How the data were processed

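RNA of IEC and LPMC of 12 rabbits was measured in 24 libraries. Each of the 6 tables that the authors deposited sets 1 treated group beside Veh Water in 1 cell type, with a normalized signal per gene and library, written to 4 significant digits and scaled separately in each table. Per the labels, the build is OryCun2.0 and FastQC was used; the aligner, the counter and the scaling are not given in the sources used here. The labels describe single reads without strand, whereas the methods describe paired inserts. All 36 columns of values were used. The columns with the authors' own fold changes, p-values and clusters were not.

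Genes were mapped to no symbol, since a RefSeq table of 38822 genes (mOryCun1.1) matched 0 identifiers; the planned marker lists were therefore not used. The signal was divided by the value of 1 read of the library, and 100% of the values under 1000 came within 0.1 of a whole number. The authors' values were compared within a table by limma 3.58.1 (trend) in R 4.3.3 on log2(signal + 1), over the genes marked as present. Groups in different tables were compared on recovered reads, scaled by TMM, over genes with 10 reads or more in 3 libraries. A fit held the libraries of its own groups and no others. As alternatives, the quasi-likelihood test of edgeR 4.0.16 and DESeq2 1.42.0 were run on the recovered reads, with other pseudocounts, filters, scalings, subsets of libraries and blocks. The quasi-likelihood test called 366 genes in IEC of TSO DSS against Veh Water, and limma 401. The tests were checked on simulated counts. The depth of the libraries, 3685522 to 27479877 reads, sets the precision of the counts.

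Titles gave the groups, and the first line of the sample description the rabbit. Libraries of a group that share a number with those of another group are different rabbits, and their deviations from the group means correlated between -0.36 and 0.31 across genes. LPMC and IEC of 1 rabbit are pairs, with correlations of -0.08 to 0.34. Rooms were read from a supplement of the paper. The genes named were the 2 members, the 5 genes most like each, and any list of 5 or fewer. The members and lists were chosen with earlier results of these data known. The comparisons of TSO DSS with Veh DSS and with TSO Water in IEC, the interaction, their alternatives, the CPM without mitochondrial genes and the edgeR fits of LPMC against Veh Water were chosen after the values were seen.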

Additional observations from a re-analysis of the deposited data

How the results depend on the processing

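Neither gene turned its direction under any setting tried in the comparisons of TSO DSS and Veh DSS with Veh Water. The fitted direction of ENSOCUG00000008813 in IEC of TSO Water did turn, to -0.081 with CPM scaling, -0.48 without TSO Water rabbit 2, -0.0045 without TSO Water rabbit 3 and -0.40 without Veh Water rabbit 3. In LPMC of TSO Water it turned from -0.057 to 0.12 and 0.041 without TSO Water rabbit 1 and 2. Calls of the members that changed in LPMC, or when 1 rabbit was left out, are given with the results above; under the other settings they changed as follows, with adjusted p-values from the tool named. DESeq2 called ENSOCUG00000008813 in IEC of TSO DSS at -3.82 (0.0022) and against TSO Water at -4.06 (0.0032), and ENSOCUG00000014009 in IEC of Veh DSS at -3.26 (0.0048). Against TSO Water, ENSOCUG00000014009 lost its call from limma in room A alone at -5.22 (0.097) and with the replicate block at -5.46 (0.075). The difference of ENSOCUG00000008813 in LPMC of TSO DSS, -6.54 as given, was -9.12 with a pseudocount of 0.1, -3.56 on CPM and -7.89 by edgeR. With 1 rabbit left out, ENSOCUG00000014009 ranged from -6.84 to -5.61 in IEC of TSO DSS, from -4.99 to -3.18 in IEC of Veh DSS and from -6.02 to -4.71 against TSO Water. ENSOCUG00000008813 ranged from -4.64 to -3.29 in IEC of TSO DSS and from -0.48 to 0.82 in IEC of TSO Water.

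Counts of called genes moved more. In IEC of TSO DSS, 401 became 136 with all 12 IEC libraries and 746 by DESeq2, and 127 to 411 with 1 rabbit left out. In IEC of Veh DSS, 10 became 6 on CPM, 4 on CPM without mitochondrial genes, 3 with all 12 libraries, 2 by edgeR, 403 by DESeq2, 0 in room A, and 0 to 302 with 1 rabbit left out. In IEC of TSO Water, 0 became 2 on CPM and with all 12 libraries, 1 in room A and on CPM without mitochondrial genes, 23 by DESeq2, and 0 to 3 with 1 rabbit left out. In LPMC, leaving out 1 rabbit gave 0 to 1720 for TSO DSS (633), 0 to 34 for Veh DSS (14) and 0 to 6 for TSO Water (3). LPMC of Veh DSS gave 7 with a pseudocount of 0.1, 9 on CPM and 3 by edgeR, and TSO Water 8 on CPM and 0 by edgeR. LPMC of Veh DSS against TSO Water gave 8, and 296 by DESeq2, 0 in room A and 0 to 27 with 1 rabbit left out. IEC of TSO DSS against Veh DSS gave 1, and 0 by edgeR and on CPM without mitochondrial genes, 29 by DESeq2 and 0 to 1 with 1 rabbit left out. Against TSO Water it gave 214, and 458 by DESeq2, 114 in room A and 25 to 199 with 1 rabbit left out. The interaction gave 0, and 1 with a pseudocount of 0.1 and in room A, 11 by DESeq2 and 0 to 1 with 1 rabbit left out. The causes of these moves were not tested.

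Replicate numbers do not pair rabbits of different groups, so the replicate block serves there as a fit with fewer degrees of freedom. With it, the counts in IEC were 202 for TSO DSS and 0 for Veh DSS, in LPMC 72 for TSO DSS and 0 for Veh DSS and TSO Water, and 0, 0 and 117 for LPMC of Veh DSS against TSO Water and IEC of TSO DSS against Veh DSS and TSO Water. Where the block is the rabbit, ENSOCUG00000008813 was called higher in LPMC than in IEC at 1.55. Of the 5 genes most like each member, 3 and 2 remained over all 24 libraries and 3 and 2 by Pearson correlation. Depth limits the LPMC levels of TSO DSS rabbits 1 and 3 most, where 3 reads are 0.362 and 0.814 CPM, against 0.217 CPM in TSO DSS rabbit 2.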
